A study of Mus musculus with 40 samples.

Results

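The 10 genes described here encode heat shock proteins, their partners and the transcription factor that controls many of them: Hspa1a, Hspa1b, Hspa8, Hsph1, Dnaja1, Dnajb1, Hsp90aa1, Hsp90ab1, Hspd1 and Hsf1. They were chosen by symbol and matched to the Ensembl identifiers of a count table of 57010 genes. All 10 passed the filter on low counts, which kept 12522 genes over the 40 libraries. RNA was measured by 3′ tag sequencing in macrophages grown from mouse bone marrow with medium conditioned by L929 cells. Cells of both genotypes carried the floxed allele Otulin FL/FL. The WT cells had no Cre, and the KO cells carried 1 copy of LysM-Cre (OtulinFL/FL LysMCreTg/WT), a Cre recombinase driven by the promoter of the myeloid lysozyme gene. Cells were harvested without LPS (0 h) and 3, 6, 12 and 24 h after ultrapure Salmonella minnesota LPS at 500 ng/ml, with 4 biological replicates for each genotype and time. The sources used here do not state the age or sex of the mice.

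Heat shock proteins are chaperones that bind unfolded or partly folded proteins. The HSP70 proteins hold exposed stretches of a client through cycles of ATP binding and hydrolysis, J-domain proteins such as Dnajb1 and Dnaja1 bring clients to HSP70 and trigger its ATPase, and HSP110 proteins such as Hsph1 release the bound nucleotide. HSP90 completes the folding of kinases and steroid receptors, and Hspd1 (HSP60) folds proteins inside mitochondria. On heat or other stress that unfolds proteins, the factor HSF1 forms trimers and binds repeated GAA units, called heat shock elements, in the promoters of these genes. LPS activates macrophages through the receptor TLR4.

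Promoter windows of 250 bases before to 50 bases after the annotated start were found in RefSeq (GRCm38.p6) for 6 of the 10 genes, in 11 windows. Hsp90aa1, Hsp90ab1, Hspa8 and Hsf1 had no entry. The windows were searched for 2 adjoining heat shock units, spelled GAANNTTC or TTCNNGAA, and for 3 units in a row, alternating GAA and TTC with 2 bases between them. Both strands were read, each 2-unit motif reads the same on either strand, and overlapping matches were counted. Among all 32851 windows, 12.8% held 2 units and 0.466% held 3 units in the 250 bases before the start. Of the windows of these genes, 6 of 11 held 2 units there, and they belonged to 5 of the 6 genes. Both windows of Hsph1 overlap and hold the same match before the start. Dnajb1 had no match in either of its windows. The stretches around these matches are shown to let the copies be compared, 5′ to 3′ along each gene, with the matched units in capitals.
Hspa1a: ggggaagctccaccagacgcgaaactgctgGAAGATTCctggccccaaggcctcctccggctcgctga
Hspa1b: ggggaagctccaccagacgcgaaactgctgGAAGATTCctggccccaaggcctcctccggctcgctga
Hsph1: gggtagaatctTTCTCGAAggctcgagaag
Dnaja1: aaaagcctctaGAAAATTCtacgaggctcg
Hspd1: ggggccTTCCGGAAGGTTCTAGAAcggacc

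The stretch of Hspa1a lies at chr17:34972223-34972290 and that of Hspa1b at chr17:34959305-34959372, both on the minus strand and both from 134 to 67 bases before the start. The letters shown for Hspa1a and Hspa1b are the same. Over the whole window their promoters were identical at 296 of 300 bases, or 98.7%. The stretch of Hsph1 lies at chr5:149636351-149636380 on the minus strand, that of Dnaja1 at chr4:40722333-40722362 on the plus strand, and that of Hspd1 at chr1:55088053-55088082 on the minus strand. Hsph1 had 3 units in a row only after the start, at base 37 from 1 annotated start and base 16 from the other. Of all windows, 0.603% held 3 units when the bases after the start were included. Hspd1 was the only gene of the 6 with 3 units in a row before the start. Hspe1, which encodes the partner of Hspd1 in the mitochondrial chaperonin and is read in the opposite direction, has the same stretch in its own window. In GENCODE vM21 the stretches of Hsph1, Dnaja1 and Hspd1 also lie within other annotated transcripts. A match describes letters and is no evidence that a factor binds there.

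Library totals ran from 3615155 to 6829303 counts. All 10 macrophage markers examined were detected in every group, among them Adgre1, whose mean CPM (the depth-corrected count, scaled to a fixed library total) was 652 in KO and 648 in WT. Of the defining markers of other lineages, Fcer1a was at 0 and Ly6g had 3 counts over all 40 libraries, while the platelet gene Pf4 had a mean of 809 CPM in KO (WT, 683). Other such markers were present: S100a8 averaged 22.3 CPM in KO (WT, 30.4), Ighm 15.0 CPM in both, and the osteoclast gene Atp6v0d2 149 CPM in KO (WT, 98.5). Summed per library, the neutrophil list gave 16.4 to 80.2 CPM, the lymphoid list 0.669 to 40.5 CPM, the mast cell and basophil list 0 to 2.36 CPM and the osteoclast list 59.5 to 327 CPM. Otulin was counted in both genotypes, with 35.9 ± 6.05 CPM in KO beside 41.1 ± 2.85 CPM in WT at 0 h (SD, n = 4). It was lower in KO without overlap at 3 h (−0.41 ± 0.10, edgeR adjusted p = 0.0564) and 6 h (−0.29 ± 0.11, adjusted p = 0.291), but at 24 h it went against the KO label. There it averaged 48.5 CPM in KO and 32.2 CPM in WT, without overlap (0.59 ± 0.11, edgeR adjusted p = 0.0704). It was not called between genotypes at any time. A tag outside the deleted part does not check the genotype, and the sources used here do not say which exons are removed. Lyz2, whose promoter drives the Cre, was lower in KO at 3, 6 and 24 h (differences of −0.47, −0.44 and −0.59 on the log2 scale, edgeR adjusted p = 0.0258, 0.00752 and 0.0387). At 0 and 12 h the differences of Lyz2 were −0.40 and −0.49, of like size but not called (edgeR adjusted p = 0.36 and 0.31). No group carried Cre without floxed Otulin, so loss of Otulin and presence of Cre cannot be told apart in any comparison of KO with WT. These are bulk samples: fewer cells expressing a gene and less RNA per cell cannot be told apart.

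Before LPS the constitutive chaperones were abundant and the inducible HSP70 genes were scarce. Tags come from 1 end of each transcript whatever its length, so CPM of different genes were set side by side. Whether identical molecules were collapsed is not given, and the order of levels is approximate. In WT at 0 h the order of the mean levels was Hsp90ab1 at 1429 CPM, Hsp90aa1 at 1073 CPM, Hspa8 at 680.0 CPM, Hspd1 at 290.2 CPM, Dnaja1 at 246 CPM, Hsph1 at 36.3 CPM, Dnajb1 at 34.4 CPM, Hsf1 at 11.5 CPM, Hspa1a at 5.68 CPM and Hspa1b at 2.60 CPM. Only the neighbours Hsph1 (33.2 to 42.0 CPM) and Dnajb1 (32.6 to 35.8 CPM) overlapped in this order. The order in KO was the same, with overlap between Hspd1 and Dnaja1, between Hsph1 and Dnajb1, and between Hsf1 and Hspa1a. At 12 h Hspa1a ranked 6th in WT and 5th in KO. The 10 genes together took 3808 ± 65.8 CPM in WT at 0 h, 5493 ± 582 CPM at 12 h and 3487 ± 193 CPM at 24 h (SD, n = 4). In KO they took 3822 ± 252, 6254 ± 161 and 3728 ± 325 CPM at the same times.

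**Figure D1:**
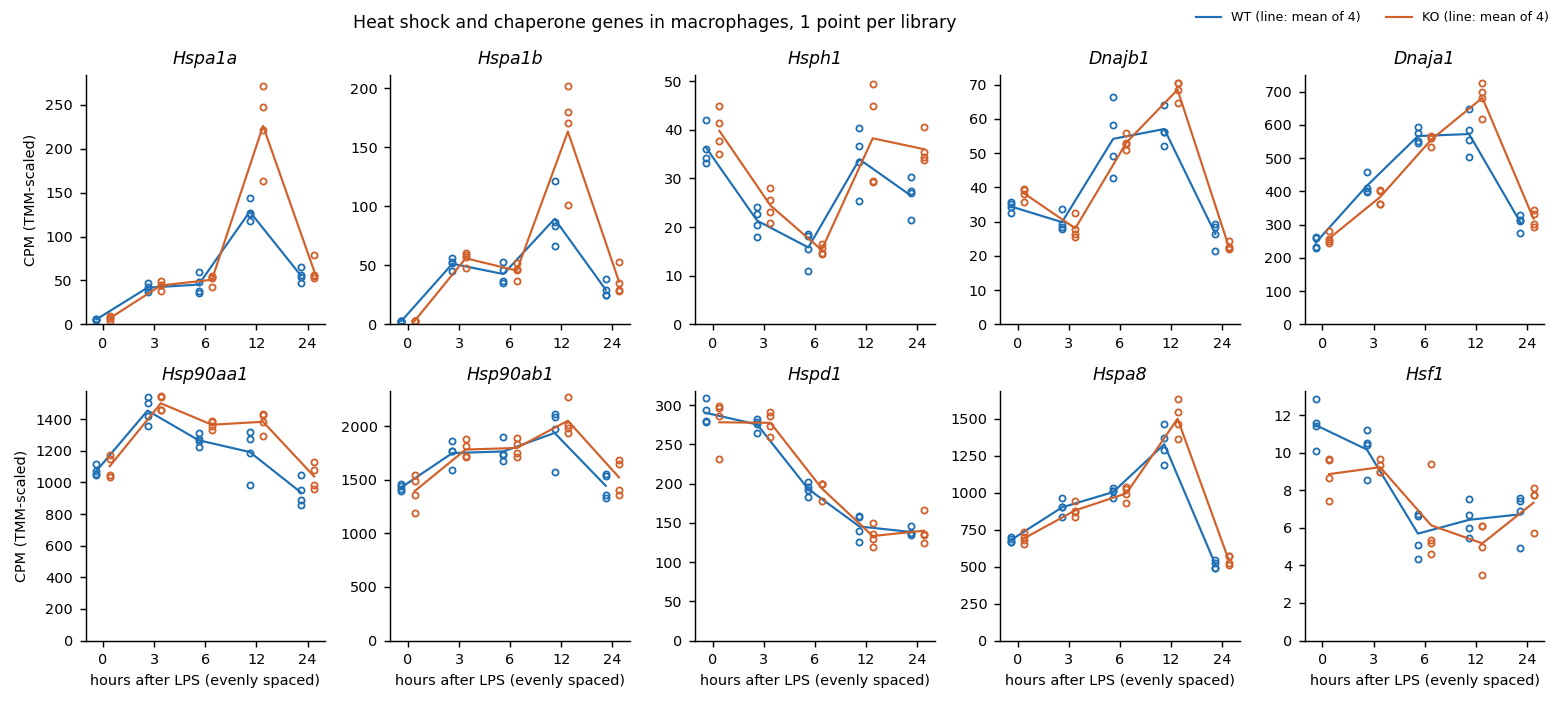
CPM with TMM-scaled totals (vertical axes, from 0) of each gene against hours after LPS (evenly spaced), 1 circle per library and lines through the means of 4. Hspa1a and Hspa1b peaked at 12 h, Hspa8, Dnaja1 and Dnajb1 were high at 6 and 12 h, Hsph1 dipped at 6 h, and Hspd1, and in WT Hsf1, were low from 6 h on.

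The comparison of each time with 0 h asks how the chaperone genes moved during LPS stimulation, and it showed several distinct courses rather than 1 shared rise. In WT at 3 h, 6 of the 10 genes were called higher, beside 26.6% of the 12151 genes tested, and 1 was called lower, beside 28.0%. At 6 h, 7 were higher (31.0% of all genes) and 3 lower (37.1%). At 12 h, 6 were higher (32.3%) and 2 lower (35.9%). By 24 h the balance had turned, with 3 higher (34.5%) and 6 lower (35.4%). Over the same course the summed level of 8 monocyte markers went from 126 to 183 CPM per library at 0 h to 492 to 546 CPM in the KO libraries of 6 h (WT, 456 to 615). At 12 h it stood at 348 to 509 CPM in KO (WT, 416 to 475). The sum of mitochondrially encoded genes ran from 9853 to 13121 CPM at 0 h, from 10900 to 16157 CPM at 3 h and from 6599 to 8306 CPM at 24 h. The part of either in these results was not tested. Calls are those of edgeR's quasi-likelihood test at a Benjamini-Hochberg adjusted p under 0.05 over all genes tested.

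In KO, 6 of the 10 were higher at 3 h (22.9% of the 12037 genes tested) and 2 lower (25.7%). At 6 h, 7 were higher (28.7%) and 3 lower (36%). At 12 h, 7 were higher (30.7%) and 2 lower (34.0%). At 24 h, 3 were higher (32.8%) and 3 lower (33.0%). The median log2 fold change of the 10 genes was 0.35, 0.43, 0.58 and −0.29 in WT at 3, 6, 12 and 24 h, beside −0.05, −0.09, −0.07 and −0.02 over all genes. In KO it was 0.34, 0.41, 0.69 and −0.11.

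These directions depend on the scaling for the genes that changed little. The main values use TMM factors, which ran from 1.22 to 1.29 at 0 h and from 0.83 to 0.90 at 6 h. Scaled by library totals alone, the median of all genes moved by −0.36, −0.50, −0.40 and −0.30 on the log2 scale at 3, 6, 12 and 24 h in WT, and by −0.34, −0.55, −0.42 and −0.30 in KO. The share of called genes that were higher then went from 48.7% to 21.3%, from 45.6% to 21.6%, from 47.4% to 25.6% and from 49.4% to 31.6% in WT. In KO it went from 47.1% to 21.2%, from 44.4% to 20.1%, from 47.4% to 24.9% and from 49.8% to 31.0%. Among the 10 genes the counts of higher and lower then became 3 and 4, 3 and 5, 5 and 4, and 2 and 7 in WT, and 3 and 3, 3 and 5, 5 and 3, and 2 and 6 in KO. Relative to the median gene the values hardly moved, with Hsp90aa1 at 6 h in WT 0.32 above it under either scaling. A change of scaling shifts all genes of a comparison by about the same amount. This likeness was therefore fixed in advance and does not show which scaling is right.

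**Figure D2:**
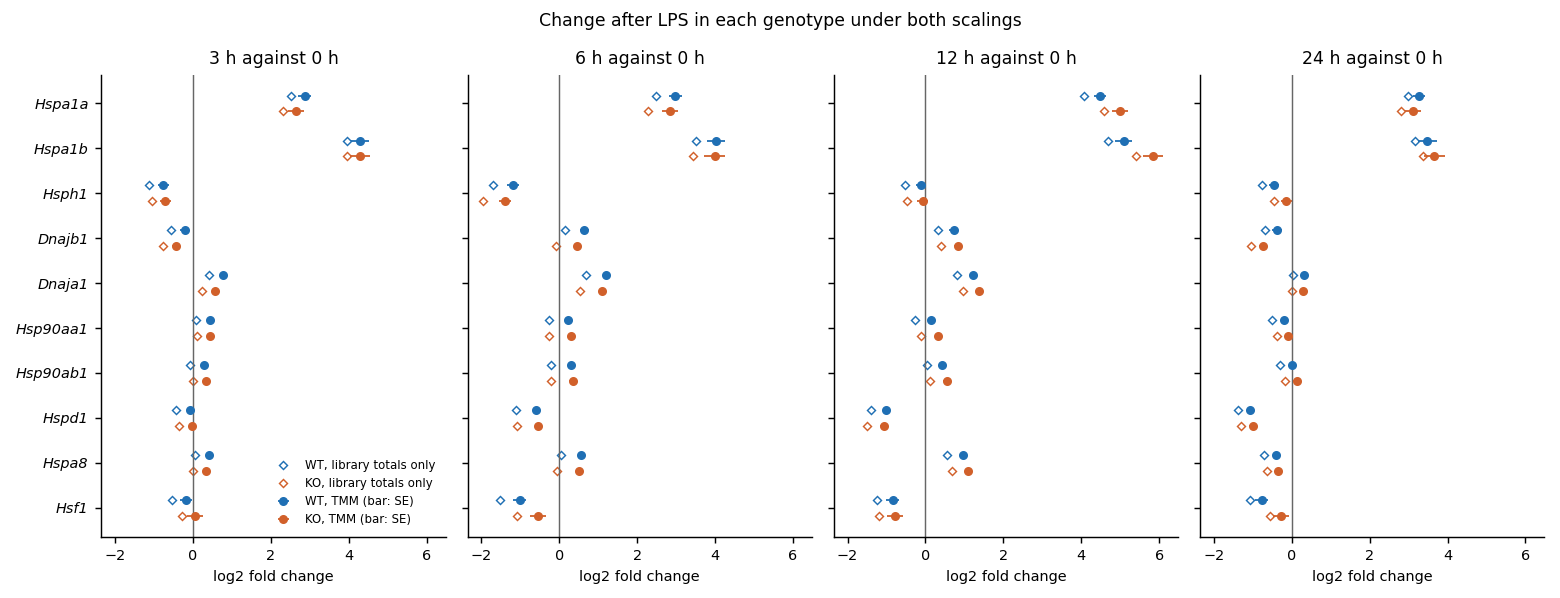
Log2 fold change against 0 h (horizontal axes) of each gene at 4 times, with TMM scaling (filled circles, bars are SE) and with library totals alone (open diamonds), in WT (blue) and KO (orange). Hspa1a and Hspa1b stay right of 0 under both scalings at every time, while Hsp90aa1, Hsp90ab1, Hspa8 in KO, Hsf1 in KO at 3 h and Dnajb1 in KO at 6 h cross 0 when library totals are used.

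Hspa1a and Hspa1b encode the stress-inducible HSP70 and gave the largest changes of the 10 genes. Hspa1a (ENSMUSG00000091971) stood at 6.28, 4.62, 6.51 and 5.31 CPM in WT libraries at 0 h, and 3 h of LPS brought 46.6, 40.8, 37.1 and 42.5 CPM. The 6 h libraries held 35.9, 48.2, 37.5 and 59.4 CPM, those of 12 h 144, 127, 117 and 126 CPM and those of 24 h 64.9, 56.6, 53.6 and 47.0 CPM. Every WT library after LPS was thus above every WT library before it, and the 12 h libraries were above those of all other times. The log2 fold changes against 0 h were 2.86 ± 0.16, 2.98 ± 0.16, 4.48 ± 0.15 and 3.27 ± 0.16 (SE), with edgeR adjusted p = 3.56e-14, 1.02e-14, 5.7e-19 and 1.09e-15. In KO the values were 9.14, 7.56, 7.08 and 3.79 CPM at 0 h, 44.8, 49.1, 45.2 and 37.9 CPM at 3 h, and 54.8, 52.3, 42.5 and 53.6 CPM at 6 h. The libraries of 12 h held 221, 271, 164 and 248 CPM and those of 24 h 52.7, 79.4, 54.5 and 56.2 CPM. The groups before and after LPS again did not overlap, and the changes were 2.65 ± 0.20, 2.85 ± 0.21, 5.00 ± 0.20 and 3.12 ± 0.20 (edgeR adjusted p = 1.82e-10, 3.19e-11, 6.31e-16 and 5.86e-12).

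Hspa1b (ENSMUSG00000090877), the second inducible HSP70 gene, started lower and rose by a larger factor. It stood at 2.05, 2.64, 2.60 and 3.12 CPM in WT at 0 h, and 3 h of LPS brought 51.6, 56.3, 44.8 and 52.7 CPM, a change of 4.30 ± 0.23 on the log2 scale (19.7-fold; edgeR adjusted p = 2.54e-13). The 6 h libraries held 36.6, 52.7, 35.1 and 46.0 CPM, those of 12 h 122, 83.3, 86.3 and 65.9 CPM and those of 24 h 38.7, 29.2, 24.5 and 24.9 CPM. The 12 h group was above all others, and all 4 libraries of 24 h were below those of 3 h. The later changes against 0 h were 4.02 ± 0.24, 5.09 ± 0.22 and 3.48 ± 0.24 (edgeR adjusted p = 7.76e-13, 4.42e-15 and 2.09e-11). In KO, Hspa1b ran from 2.42 to 3.22 CPM at 0 h, 47.3 to 60.7 CPM at 3 h, 36.7 to 52.1 CPM at 6 h, 101 to 202 CPM at 12 h and 27.9 to 52.8 CPM at 24 h. These KO changes were 4.28 ± 0.26, 3.99 ± 0.27, 5.83 ± 0.26 and 3.66 ± 0.27, all called. Among all genes tested in WT, the change of Hspa1b ranked 225th from the top at 3 h and 204th at 12 h, and that of Hspa1a 450th and 263rd.

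The level of Hspa1a and Hspa1b did not pass the test between 3 and 6 h in either genotype (in WT, 0.11 ± 0.13 and −0.28 ± 0.17, edgeR adjusted p = 0.532 and 0.20; in KO, 0.20 ± 0.17 and −0.30 ± 0.20, adjusted p = 0.398 and 0.250). From 6 to 12 h they rose by 1.5 ± 0.12 and 1.07 ± 0.16 in WT and by 2.15 ± 0.17 and 1.84 ± 0.19 in KO, and from 12 to 24 h they changed by −1.21 ± 0.12 and −1.61 ± 0.17 in WT and by −1.88 ± 0.16 and −2.16 ± 0.19 in KO (all called). The course thus had a first step by 3 h, a second at 12 h and a partial return. With library totals Hspa1b was called lower from 3 to 6 h (−0.42 in WT, edgeR adjusted p = 0.0329, and −0.51 in KO, adjusted p = 0.035). Because the copies are nearly identical, reads could be shared between them, and their separate values are less certain than their sum. Counted as 1 feature they changed by 3.48 ± 0.16, 3.4 ± 0.16, 4.70 ± 0.16 and 3.35 ± 0.16 in WT and by 3.34 ± 0.20, 3.28 ± 0.21, 5.30 ± 0.21 and 3.31 ± 0.20 in KO, each called. The summed level ran from 7.26 to 9.12 CPM in WT at 0 h and from 192 to 265 CPM at 12 h. The gene model Gm20481 overlaps Hspa1a on the other strand, and the strand setting of the counting is not given in the sources used here.

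Hspa8 (ENSMUSG00000015656) encodes the constitutive HSC70, which carries most HSP70 work in unstressed cells. In WT it stood at 685, 667, 668 and 699 CPM at 0 h, 902, 836, 903 and 965 CPM at 3 h, and 966, 1012, 1012 and 1030 CPM at 6 h. The libraries of 12 h held 1468, 1371, 1188 and 1288 CPM and those of 24 h 545, 524, 494 and 493 CPM. The 12 h libraries were above and the 24 h libraries below those of 0 h, without overlap. The changes were 0.40 ± 0.07, 0.56 ± 0.07, 0.96 ± 0.07 and −0.41 ± 0.07 (edgeR adjusted p = 1.14e-05, 4.61e-08, 1.65e-12 and 7.53e-06). In KO they were 0.34 ± 0.07, 0.51 ± 0.07, 1.1 ± 0.07 and −0.34 ± 0.07, all called, although those at 3 and 6 h became −0.00 and −0.04 with library totals, at which the WT calls of 3 and 6 h were lost too. From 12 to 24 h Hspa8 changed by −1.37 ± 0.07 in WT and −1.44 ± 0.07 in KO. Small nucleolar RNA genes of the Snord14 group lie within Hspa8 on the same strand.

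The J-domain partners Dnaja1 and Dnajb1 followed different courses. Dnaja1 (ENSMUSG00000028410) stood at 228, 233, 259 and 262 CPM in WT at 0 h, at 400.3, 398, 409 and 459 CPM at 3 h and at 546, 575, 551 and 594 CPM at 6 h. It stayed at 648, 586, 554 and 503 CPM at 12 h and came back to 312, 329, 315 and 274 CPM at 24 h. All WT libraries after LPS lay above all at 0 h, and the changes were 0.76 ± 0.08, 1.2 ± 0.08, 1.22 ± 0.08 and 0.32 ± 0.08 (edgeR adjusted p = 4.26e-09, 3.11e-13, 2.73e-13 and 0.000642). In KO they were 0.56 ± 0.08, 1.09 ± 0.08, 1.39 ± 0.08 and 0.30 ± 0.08, all called. The calls at 24 h were lost with library totals (0.02 in WT, adjusted p = 0.794, and 0.00 in KO, adjusted p = 0.985). From 6 to 12 h Dnaja1 did not pass the test in WT (0.02 ± 0.08, edgeR adjusted p = 0.882) and rose in KO (0.30 ± 0.08, adjusted p = 0.00248), a call that was lost without KO replicate 2 (adjusted p = 0.0786). Smu1 and Gm6297 overlap Dnaja1 on the other strand.

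Dnajb1 (ENSMUSG00000005483), the classical HSP40 partner of inducible HSP70, was high at 6 and 12 h and below its starting level at 24 h. In WT it stood at 35.8, 34.3, 32.6 and 35.2 CPM at 0 h, 27.8, 29.4, 28.5 and 33.7 CPM at 3 h, and 42.8, 58.3, 49.1 and 66.5 CPM at 6 h. The libraries of 12 h held 52.0, 56.2, 56.1 and 64.0 CPM and those of 24 h 21.4, 29.2, 28.5 and 26.5 CPM. The libraries of 6 and 12 h lay above and those of 24 h below all of 0 h, while 3 h and 0 h overlapped. The WT change at 3 h was −0.21 ± 0.12 and did not pass the test (edgeR adjusted p = 0.134), and those at 6, 12 and 24 h were 0.64 ± 0.11, 0.72 ± 0.11 and −0.38 ± 0.12 (adjusted p = 1.85e-05, 3.18e-06 and 0.00645). In KO, Dnajb1 ran from 35.7 to 39.7 CPM at 0 h, 25.4 to 32.5 CPM at 3 h, 50.8 to 55.9 CPM at 6 h, 64.8 to 70.5 CPM at 12 h and 22.0 to 24.3 CPM at 24 h. None of the 4 later ranges overlapped that of 0 h, and the changes were −0.45 ± 0.09, 0.46 ± 0.09, 0.83 ± 0.09 and −0.74 ± 0.09, all called. With library totals the KO value at 6 h turned to −0.09 and the WT call at 6 h was lost (0.14, adjusted p = 0.286), while WT at 3 h became a call (−0.57, adjusted p = 0.000286).

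Hsph1 (ENSMUSG00000029657), the inducible HSP110 and itself a heat shock gene, fell in the first hours after LPS. It stood at 34.1, 33.2, 36 and 42.0 CPM in WT at 0 h, 18.0, 24.1, 20.4 and 22.7 CPM at 3 h and 18.2, 15.5, 11.0 and 18.5 CPM at 6 h. It stood at 40.4, 33.4, 25.3 and 36.6 CPM at 12 h and at 27.3, 30.3, 27.0 and 21.4 CPM at 24 h. The 3, 6 and 24 h groups lay below that of 0 h without overlap, and the 12 h group overlapped it. The changes were −0.77 ± 0.14, −1.19 ± 0.15, −0.12 ± 0.14 and −0.45 ± 0.14 (edgeR adjusted p = 6.01e-05, 1.4e-07, 0.458 and 0.00537). The call at 24 h was lost without WT replicate 4 (−0.29, adjusted p = 0.0757). In KO, Hsph1 ran from 35.1 to 45.0 CPM at 0 h and from 14.4 to 16.4 CPM at 6 h, and the changes were −0.71 ± 0.14, −1.40 ± 0.16, −0.06 ± 0.14 and −0.14 ± 0.14, called at 3 and 6 h. With library totals it was called lower at 12 h too (−0.52 in WT, edgeR adjusted p = 0.00157, and −0.49 in KO, adjusted p = 0.00447), and at 24 h in KO (−0.44, adjusted p = 0.00914). Between 6 and 12 h, when Hspa1a and Hspa1b also rose, Hsph1 rose by 1.07 ± 0.16 in WT and by 1.33 ± 0.16 in KO (edgeR adjusted p = 4.24e-06 and 3.68e-07).

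The HSP90 genes, which are among the most abundant messages of the cell, moved little. Hsp90aa1 (ENSMUSG00000021270), the inducible form, stood at 1045, 1075, 1057 and 1114 CPM in WT at 0 h, and 3 h of LPS brought 1501, 1356, 1419 and 1543 CPM, where it was highest. It then ran from 1223 to 1312 CPM at 6 h, 983 to 1322 CPM at 12 h and 856 to 1045 CPM at 24 h. The 3 and 6 h groups lay above 0 h without overlap. The changes were 0.44 ± 0.08, 0.23 ± 0.08, 0.15 ± 0.08 and −0.20 ± 0.08 (edgeR adjusted p = 4.16e-05, 0.0114, 0.101 and 0.0306). With library totals those at 6 and 12 h turned to −0.27 and −0.26, both called lower, and the call at 3 h was lost (0.076, edgeR adjusted p = 0.292). The call at 24 h was lost without WT replicate 2, 3 or 4 (adjusted p = 0.168, 0.0936 and 0.158), with RLE scaling (0.0815) and with DESeq2 (0.0659). At 12 h a call appeared without WT replicate 3 (0.22, adjusted p = 0.0221), with RLE scaling (0.0295) and with DESeq2 (0.0187). In KO the changes were 0.43 ± 0.07, 0.29 ± 0.07, 0.31 ± 0.07 and −0.09 ± 0.07, called at 3, 6 and 12 h. With library totals they became −0.26 at 6 h, called lower, and −0.11 at 12 h, not called. The KO call at 3 h was then lost (0.096, edgeR adjusted p = 0.205) and 24 h was called lower (−0.38, adjusted p = 1.64e-05).

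Hsp90ab1 (ENSMUSG00000023944), the constitutive form, was the most abundant of the 10 genes in every group. In WT it stood at 1392, 1445, 1463 and 1416 CPM at 0 h and at 2114, 2086, 1576 and 1977 CPM at 12 h, with ranges of 1595 to 1868 CPM at 3 h, 1678 to 1905 CPM at 6 h and 1331 to 1558 CPM at 24 h. The groups of 3, 6 and 12 h lay above that of 0 h and the 24 h group overlapped it. The changes were 0.29 ± 0.08, 0.30 ± 0.08, 0.43 ± 0.08 and 0.01 ± 0.08 (edgeR adjusted p = 0.00418, 0.00243, 4.72e-05 and 0.888). In KO they were 0.34 ± 0.09, 0.35 ± 0.09, 0.54 ± 0.09 and 0.13 ± 0.09, called at 3, 6 and 12 h. With library totals they were −0.07, −0.21, 0.03 and −0.29 in WT and 0.00, −0.21, 0.12 and −0.17 in KO. Of these, the values at 6 h in both genotypes and at 24 h in WT were called lower. None of the others was called.

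Hspd1 (ENSMUSG00000025980), the mitochondrial chaperonin subunit, fell from 6 h on and did not return. In WT it stood at 278, 293, 309 and 280.4 CPM at 0 h, 279, 264, 283 and 276 CPM at 3 h, and 192, 182, 202 and 196 CPM at 6 h. The libraries of 12 h held 158, 139, 126 and 159 CPM and those of 24 h 146, 134, 137 and 137 CPM. The groups of 0 and 3 h overlapped, and all libraries from 6 h on were below both. The changes were −0.08 ± 0.07, −0.59 ± 0.07, −1.0 ± 0.07 and −1.07 ± 0.07 (edgeR adjusted p = 0.345, 2.52e-08, 1.51e-12 and 4.83e-13). In KO they were −0.01 ± 0.10, −0.54 ± 0.10, −1.08 ± 0.10 and −0.99 ± 0.10, called from 6 h on. The value at 3 h in KO, which did not pass the test, changed sign with RLE scaling. With library totals the 3 h values were called lower (−0.44 in WT, edgeR adjusted p = 1.88e-06, and −0.35 in KO, adjusted p = 0.00305). Several processed pseudogenes are named after Hspd1 and could share its tags.

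Hsf1 (ENSMUSG00000022556), the heat shock transcription factor itself, was a low gene and fell as well. In WT it stood at 12.8, 10.1, 11.6 and 11.4 CPM at 0 h, 10.5, 10.4, 11.2 and 8.56 CPM at 3 h, and 6.63, 5.10, 6.71 and 4.32 CPM at 6 h. At 12 h it ran from 5.47 to 7.55 CPM and at 24 h from 4.90 to 7.60 CPM. The 6, 12 and 24 h groups lay below that of 0 h without overlap. The changes were −0.17 ± 0.16, −1.02 ± 0.17, −0.84 ± 0.17 and −0.77 ± 0.16 (edgeR adjusted p = 0.357, 1.11e-05, 8.61e-05 and 0.000169). In KO they were 0.05 ± 0.19, −0.54 ± 0.21, −0.78 ± 0.21 and −0.27 ± 0.20, called at 6 h (edgeR adjusted p = 0.0287) and 12 h (adjusted p = 0.00251). The call at 6 h was lost without KO replicate 1, 2 or 3 (adjusted p = 0.260, 0.103 and 0.180), with another scaling and with DESeq2, and it ranged from 5.42e-05 to 0.260 over the 10 alternatives. With library totals Hsf1 was also called lower in WT at 3 h (−0.53, edgeR adjusted p = 0.00485) and in KO at 24 h (−0.57, adjusted p = 0.0146). The gene had 14 to 94 counts per library.

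The steps between later times were tested as well. In WT, 6 of the 10 genes changed from 3 to 6 h (2 higher, 4 lower), beside 42.3% of all genes, and 9 from 6 to 24 h (2 higher, 7 lower), beside 62.8%. From 6 to 12 h, 5 changed (4 higher, 1 lower; 45.6% of all genes), and from 12 to 24 h, 7 changed, all lower (39.6%). In KO, 5 changed from 3 to 6 h (2 higher, 3 lower; 40.6%), 7 from 6 to 24 h (1 higher, 6 lower; 61.2%), 7 from 6 to 12 h (6 higher, 1 lower; 44.8%) and 7 from 12 to 24 h, all lower (36.9%). Hspa1a, Hspa1b, Hspa8, Dnaja1, Dnajb1, Hsp90aa1 and Hsp90ab1 were the 7 that fell from 12 to 24 h in either genotype. Dnajb1 changed by −1.1 ± 0.12 in WT and −1.57 ± 0.09 in KO over that step, and Dnaja1 by −0.89 ± 0.08 and −1.08 ± 0.08. With library totals the share of called genes that were higher went, in the order 3 to 6, 6 to 24, 6 to 12 and 12 to 24 h, from 48.3% to 30.3%, 50.4% to 65.1%, 48.8% to 61.6% and 48.2% to 63.0% in WT. In KO it went from 46.7% to 25.2%, 52.2% to 69.1%, 50.8% to 65.0% and 49.1% to 66.6%. In WT several of these calls depended on the analysis. From 3 to 6 h the call of Hsp90aa1 was lost with RLE scaling (edgeR adjusted p = 0.082), with DESeq2 and without any 1 replicate (0.0534 to 0.126), and that of Hsph1 with RLE scaling (0.054), with DESeq2 and without WT replicate 2 or 3 (0.235 and 0.148). From 6 to 24 h that of Hspa1a was lost with RLE scaling (edgeR adjusted p = 0.0695), with DESeq2, in 1 fit of all libraries and without WT replicate 1, 2 or 3 (0.465, 0.0909 and 0.189). That of Hspa1b was lost with library totals (edgeR adjusted p = 0.0744) and without WT replicate 2 or 4 (0.118 and 0.0605), and the summed copies gave −0.05 (0.751). With library totals the 6 to 24 h counts were 3 higher and 5 lower in WT and 3 and 3 in KO. In KO the call of Hsf1 from 3 to 6 h was lost without KO replicate 1, 2 or 3, without the filter and with DESeq2. The steps from 6 to 12 h and from 12 to 24 h were added after the levels had been seen.

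The comparison of KO with WT at each time asks whether cells with LysM-Cre and floxed Otulin differed in these genes. None of the 10 genes passed the test at any time with edgeR's quasi-likelihood test. At 0 h the count was 0 of 10, beside 0% of the 11734 genes tested, and at 3 h 0 of 10, beside 0.689%. At 6 h it was 0 of 10 (1.01%), at 12 h 0 of 10 (0.0464%) and at 24 h 0 of 10 (0.0809%). At an unadjusted p under 0.05 there were 1, 0, 0, 4 and 1 of the 10 genes at 0, 3, 6, 12 and 24 h, beside 7.67%, 11.7%, 12.0%, 7.72% and 7.46% of all genes tested. DESeq2 called 2 at 12 h and 0 at the other times. Of the 50 differences, 5 had groups that did not overlap, 1, 0, 1, 2 and 1 at these times, beside 5.01%, 6.23%, 7.82%, 5.03% and 4.41% of all genes. Over all genes, the share of calls that were higher in KO went with library totals from 83.0% to 61.3% at 6 h, from 80.0% to 100% at 12 h and from 66.7% to 50% at 24 h.

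**Figure D3:**
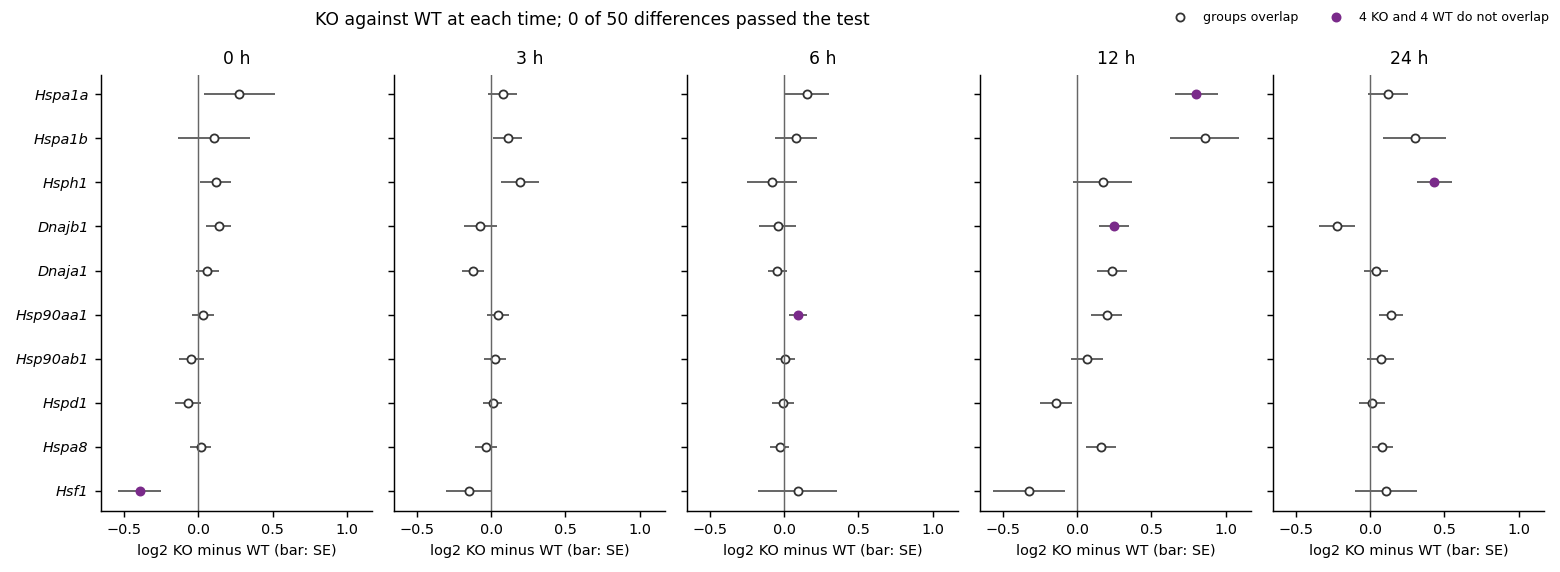
KO minus WT difference (log2, horizontal axes; bars are SE) of each gene at 5 times, 4 libraries per genotype, filled where the groups do not overlap. Hspa1a and Hspa1b at 12 h lie farthest from 0, at 0.80 and 0.86, and 0 of the 50 differences passed edgeR's test.

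The largest KO minus WT differences of the 10 genes at any time were those of the inducible HSP70 genes at 12 h, and whether they passed a test depended on the analysis. Hspa1a stood at 221, 271, 164 and 248 CPM in KO and at 144, 127, 117 and 126 CPM in WT. Every KO library was above every WT library, and the difference was 0.80 ± 0.14 on the log2 scale (1.74-fold, edgeR adjusted p = 0.0986). Hspa1b stood at 170.2, 202, 101 and 180.0 CPM in KO and at 122, 83.3, 86.3 and 65.9 CPM in WT. Here KO replicate 3 lay below WT replicate 1 and the other 3 KO libraries above all of WT, with a difference of 0.86 ± 0.23 (1.81-fold; edgeR adjusted p = 0.317). As 1 feature they differed by 0.82 ± 0.17 (edgeR adjusted p = 0.12). Both genes were called higher in KO by DESeq2 (adjusted p = 0.000302 for Hspa1a and 0.0247 for Hspa1b), in 1 edgeR fit of all 40 libraries (0.00138 and 0.00645), without the filter on low counts (1.24e-08 and 0.000652) and without KO replicate 3 (0.00853 and 0.0495). Over the 15 alternatives the adjusted p ran from 1.24e-08 to 0.367 for Hspa1a and from 0.000652 to 0.678 for Hspa1b, with 4 calls each, while the difference ran from 0.70 to 0.93 and from 0.74 to 1.04. At this time the summed monocyte markers of the genotypes overlapped and no marker gene examined was called between them. The sum of 7 osteoclast markers did not overlap, with 118 to 135 CPM in KO (WT, 70.6 to 108). This was not particular to 12 h. The sums were also apart at 6 h (KO, 186 to 256 CPM, and WT, 124 to 174) and at 24 h (KO, 103 to 132 CPM, and WT, 59.5 to 95.1). At 0 and 3 h they overlapped. Averaged over all times, Atp6v0d2 held most of this sum, at 149 CPM in KO (WT, 98.5). The next largest, Acp5, averaged 17.4 CPM in KO (WT, 15.6). The sums therefore do not describe 7 markers moving together. The part of these markers in the difference was not tested.

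At the other times the KO minus WT differences of Hspa1a were 0.28 ± 0.24, 0.08 ± 0.10, 0.15 ± 0.15 and 0.12 ± 0.13 at 0, 3, 6 and 24 h, and those of Hspa1b 0.11 ± 0.24, 0.11 ± 0.10, 0.08 ± 0.14 and 0.30 ± 0.21. Whether the rise from 0 to 12 h itself was larger in KO was tested as an interaction. It gave 0.52 ± 0.28 for Hspa1a and 0.75 ± 0.43 for Hspa1b, both with edgeR adjusted p = 1. No interaction of the 10 genes passed the test at 3 h (0 of 10, beside 0% of genes), 6 h (0 of 10, 0%), 12 h (0 of 10, 0%) or 24 h (0 of 10, 0.00818%). At an unadjusted p under 0.05 the counts were 0, 0, 0 and 1, beside 2.81%, 4.37%, 3.26% and 3.88% of all genes, and DESeq2 called 0 of the 10 at each time. These p-values do not show that the genotypes respond alike.

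The other 4 differences without overlap were smaller. Dnajb1 at 12 h ran from 64.8 to 70.5 CPM in KO (WT, 52.0 to 64.0) (0.25 ± 0.10, edgeR adjusted p = 0.583), and Hsph1 at 24 h from 33.7 to 40.6 CPM in KO (WT, 21.4 to 30.3) (0.43 ± 0.12, adjusted p = 0.243). Hsf1 at 0 h ran from 7.44 to 9.69 CPM in KO (WT, 10.1 to 12.8) (−0.39 ± 0.15, edgeR adjusted p = 0.529), and Hsp90aa1 at 6 h at 1334 to 1386 CPM and 1223 to 1312 CPM (0.09 ± 0.06, adjusted p = 0.597). None of these 4 was called under any alternative run. The differences of all 10 genes ran from −0.15 to 0.19 at 3 h and from −0.08 to 0.15 at 6 h.

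Around these genes, 10 lists of chaperones and co-chaperones were counted in the same fits. Most mitochondrial chaperones and proteases fell at 6 and 12 h, as Hspd1 did. Of 11 tested in WT, 1, 0, 0 and 1 were higher and 4, 8, 9 and 6 lower at 3, 6, 12 and 24 h, with a median of −0.72 on the log2 scale at 12 h beside −0.07 over all genes. Over all genes in WT, 26.6%, 31.0%, 32.3% and 34.5% were higher and 28.0%, 37.1%, 35.9% and 35.4% lower at these times. In KO 0, 0, 0 and 2 of the 11 were higher and 4, 7, 8 and 6 lower. With RLE scaling 1, 1, 1 and 2 were higher in KO. Hscb, a mitochondrial J-domain protein of iron-sulphur cluster assembly, stood at 9.81 CPM at 6 h and 29.7 CPM at 0 h in WT, a change of −1.62 ± 0.15. Grpel2, a nucleotide exchange factor of mitochondrial HSP70, changed by −1.27 ± 0.15 at 6 h, and Clpp, a matrix protease, by −0.98 ± 0.18 at 12 h. With library totals 11 of 11 were lower at 6 and 12 h in WT, when only 21.6% and 25.6% of all called genes were higher.

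The TRiC chaperonin and prefoldin, which fold actin and tubulin, turned from higher to lower over the course. Of 14 tested in WT, 10 were higher and 0 lower at 3 h, 8 and 0 at 6 h, 2 and 8 at 12 h, and 1 and 10 at 24 h. The shares of all genes in WT were 26.6% and 28.0%, 31.0% and 37.1%, 32.3% and 35.9%, and 34.5% and 35.4%. In KO the counts of this list were 5 and 0, 4 and 0, 1 and 9, and 1 and 10. With library totals the early rise in WT became 1 higher and 3 lower at 3 h and 1 and 11 at 6 h. Only 21.3% and 21.6% of all called genes were then higher. Cct3 stood at 168 CPM at 6 h and 89.6 CPM at 0 h in WT (0.90 ± 0.08), a direction it kept with library totals. Cct5 changed by −0.91 ± 0.09 and Cct4 by −0.73 ± 0.08 at 24 h.

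The direction of the J-domain co-chaperones depended on the scaling. Of 13 tested in WT, 6, 7, 8 and 7 were higher and 1, 3, 2 and 3 lower at 3, 6, 12 and 24 h. The shares of all genes were 26.6%, 31.0%, 32.3% and 34.5% higher and 28.0%, 37.1%, 35.9% and 35.4% lower. With library totals the counts of this list became 4, 3, 2 and 5 higher and 7, 8, 5 and 4 lower. Dnaja2, the close relative of Dnaja1, stood at 470.2 CPM at 6 h and 153 CPM at 0 h in WT, a change of 1.62 ± 0.07, and at 529 and 158 CPM in KO (1.73 ± 0.10). Dnajb2 changed by 1.12 ± 0.13 at 3 h and Dnajc13, which acts in endosomes, by 1.12 ± 0.07 at 6 h in WT. These 3 stayed higher with library totals.

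**Figure D4:**
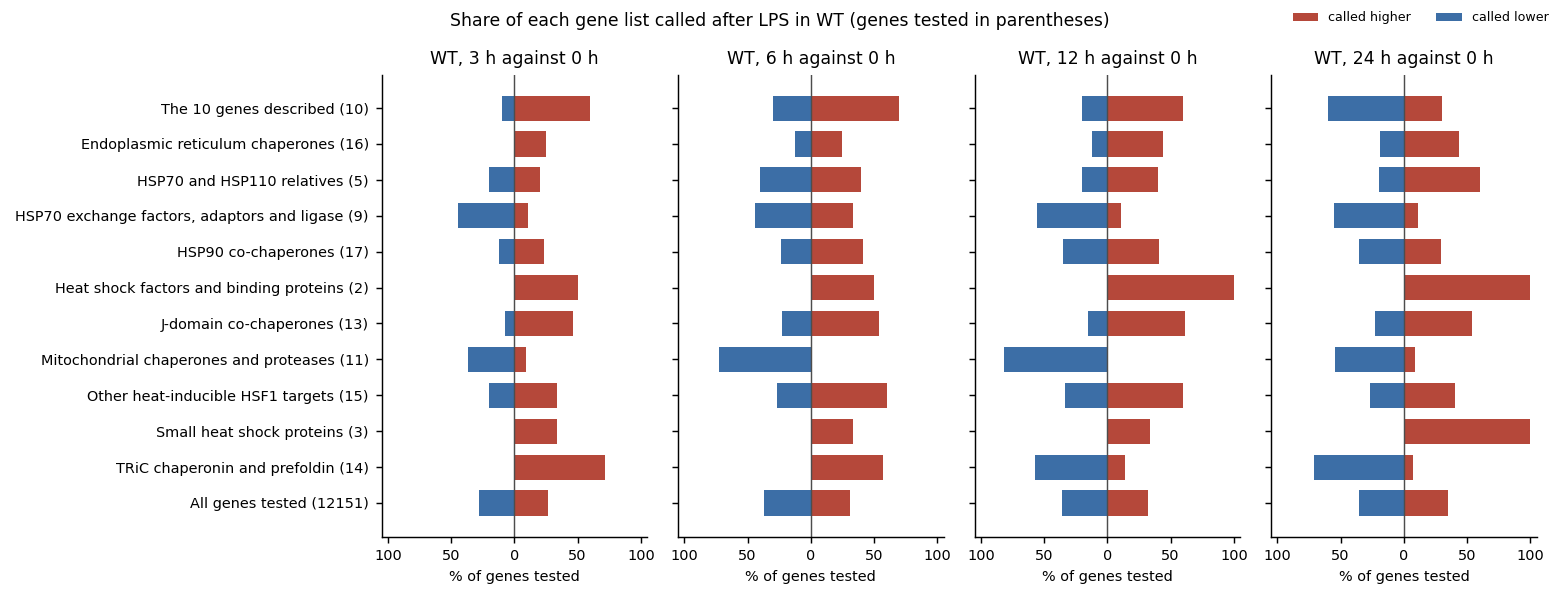
Percent of the genes tested in each list (number in parentheses) that were called higher (red, to the right) or lower (blue, to the left) in WT at 4 times against 0 h with TMM scaling, with all genes in the lowest row. The mitochondrial list lies to the left at 6 and 12 h and the TRiC list turns from right at 3 h to left at 24 h, although with library totals the early TRiC calls turn lower.

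Of the other heat-inducible HSF1 targets, 15 were tested, and 9 were higher and 4 lower at 6 h and 9 and 5 at 12 h in WT. Over all genes the shares were 31.0% and 37.1% at 6 h and 32.3% and 35.9% at 12 h. With library totals the counts were 6 and 8, and 4 and 6. Zfand2a, a strongly heat-induced gene that acts at the proteasome, went against Hspa1a: it stood at 17.5 CPM at 6 h and 58.6 CPM at 0 h in WT (−1.74 ± 0.09) and at 16.8 and 59.7 CPM in KO (−1.85 ± 0.14). Dedd2 changed by −1.51 ± 0.32 at 6 h. Ubb, a polyubiquitin gene, was the only gene of the 10 lists called between genotypes, with 333 CPM in KO beside 236 CPM in WT at 3 h (0.50 ± 0.07, edgeR adjusted p = 0.00526).

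The HSP90 co-chaperones went both ways, as all genes did. Of 17 tested, 7 were higher and 4 lower at 6 h in WT, beside 31.0% and 37.1% of all genes. With library totals they were 2 and 11. Stip1, which links HSP70 to HSP90, stood at 80.0 CPM at 6 h and 38.5 CPM at 0 h (1.05 ± 0.09), while Fkbp5, an immunophilin of steroid receptor complexes, changed by −2.38 ± 0.16 at 12 h and Fkbp4 by −0.83 ± 0.11. Of the 9 HSP70 exchange factors, adaptors and ligase tested, 3 were higher and 4 lower at 6 h in WT (0 and 7 with library totals). The shares of all genes were 31.0% and 37.1%. Bag4, Bag5 and Hspbp1 changed by −1.22 ± 0.11 at 6 h, −0.98 ± 0.11 at 24 h and −0.91 ± 0.14 at 24 h. Of the 5 HSP70 and HSP110 relatives tested, Hspa4 changed by −0.98 ± 0.08 at 24 h and Hspa4l by 0.88 ± 0.11 at 6 h. Hspa14 changed by 0.43 ± 0.07 at 24 h, a call lost with library totals (0.13, adjusted p = 0.127).

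Of the 16 endoplasmic reticulum chaperones, 4 were higher and 2 lower at 6 h in WT, beside 31.0% and 37.1% of all genes. With library totals they were 1 and 14, when 21.6% of all called genes were higher. Hspa5 (BiP), the HSP70 of the endoplasmic reticulum, stood at 2347 CPM at 6 h and 1354 CPM at 0 h in WT (0.79 ± 0.07) and kept this direction with library totals. Dnajb11 changed by 0.92 ± 0.09 and Dnajc3 by −0.67 ± 0.08 at 24 h. Both measured genes of the heat shock factor list rose at 24 h in WT, Hsf2 by 0.61 ± 0.12 to 60.7 CPM and Hsbp1, which binds HSF1, by 0.59 ± 0.08 to 156 CPM. Of 10 small heat shock proteins only 3 passed the filter. All 3 were called higher at 24 h in WT, beside 34.5% of all genes, and 2 of them with library totals. A low gene can pass the filter through 1 group in which it is high. This count therefore does not describe the 10 genes as a set. No list is called particular from these counts, since the lists were not tested as sets.

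The genes whose course was most like each member's were sought over the 10 group means of log2 CPM (0.5 CPM added), among 4966 genes that averaged 5 CPM or more and varied by at least 1. These correlations describe means that share libraries and depth. Hspa1a was followed most closely by Syk (r = 0.979), Tcirg1 (0.972) and Nectin2 (0.972), and Hspa1b by Fam20c (0.977), Met (0.968) and Mcoln2 (0.967). Hspa1a and Hspa1b were themselves at r = 0.965. Hsph1 was nearest to Pqlc2 (0.980), Nckap5l (0.968) and Hs1bp3 (0.960), Dnajb1 to Krcc1 (0.941), Dcakd (0.938) and Uaca (0.926), and Dnaja1 to Atp13a1 (0.990), Pofut1 (0.984) and Acsl5 (0.982).

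Hspd1 was nearest to Nol11 (0.998), Srsf1 (0.998) and Srm (0.997). Nol11 serves ribosomal RNA synthesis, Srsf1 is a splicing factor and Srm makes spermidine. Hsf1 was nearest to Nop14 (0.968), Taf1d (0.967) and Trmt1 (0.966), and Hspa8 to Tram2 (0.979), Ppp4r1 (0.971) and Olfr920 (0.906). Hsp90aa1 and Hsp90ab1 varied by less than 1 and were left out by the rule. Among the members, Hsp90ab1 and Dnaja1 (r = 0.942), Hsp90ab1 and Hspa8 (0.915) and Dnaja1 and Hspa8 (0.869) ran most alike after Hspa1a and Hspa1b, and Hspd1 ran most against Hspa1a (−0.770). Over the 40 single libraries Syk was again nearest to Hspa1a (0.958), and the nearest genes to Hsph1 and Dnajb1 were the same. The nearest gene was another one for Hspa1b (Met, 0.958), Dnaja1 (Aida, 0.959), Hspd1 (Atf5, 0.976), Hspa8 (Ppp4r1, 0.929) and Hsf1 (Taf1d, 0.853).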

How the data were processed

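RNA of 40 libraries was made into 3′ tag libraries (QuantSeq 3′ mRNA FWD). The deposited values are expected counts per gene made by the authors with RSEM 1.3.3. The submitters' processing notes also name STAR 2.7.10a, UMI-tools 1.1.2, cutadapt 3.7, FastQC 0.11.9 and the build GRCm39. Whether identical molecules were collapsed, and which strand setting was used, is not given in the sources used here. Expected counts were rounded to whole numbers before the fits. Gene symbols came from GENCODE vM21 and matched 52029 of 57010 identifiers.

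Libraries held 3615155 to 6829303 counts. Genes were filtered with filterByExpr (minimum count 10), scaled by TMM and tested with the quasi-likelihood test of edgeR 4.0.16 in R 4.3.3, with Benjamini-Hochberg adjustment over all genes and a threshold of 0.05. Each comparison used the libraries of its own groups: the 5 times of 1 genotype, the 2 genotypes at 1 time, or the 4 groups of an interaction. CPM use TMM-scaled totals. The labels call the libraries biological replicates, and p-values measure the spread between them. No pair of replicates agreed within sampling noise (60 pairs, chi-square over degrees of freedom 2.34 to 18.9).

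The genes and lists were chosen with earlier results of these data known. From each list up to 3 genes are named, those with the largest change in WT against 0 h among genes with a mean of 5 CPM or more that were called in the same direction in both genotypes, plus any gene called between genotypes; a gene that this rule names and 2 markers are not reported here. The courses most like each member's were sought among genes of that level whose group means spanned at least 1, leaving out pseudogenes and unnamed gene models. In simulated data with 2-fold changes in 200 genes, the test recovered 76% of them for KO against WT at 12 h (10619 genes). There 7.32% of the calls were false. For the interaction at 12 h it recovered 64.5%, with 5.15% of the calls false. The measured data gave only 5 calls for KO against WT at 12 h, so the adjustment was stricter there. The simulated share is therefore not the power that applies to the measured data. Alternatives were RLE scaling, library totals, no filter, DESeq2 1.42.0, a replicate block, 1 fit of all libraries, Hspa1a and Hspa1b summed, and leaving out each replicate.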

Additional observations from a re-analysis of the deposited data

Results flagged for a closer look

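Of the 100 groups of 4 libraries (10 genes, 2 genotypes, 5 times), 4 held a library far from the other 3, by a gap above the critical value of Dixon's test. Chance flags about 1 in 20 groups. Hsf1 in KO at 24 h stood at 5.72 CPM in replicate 4, below the others at 7.74 to 8.10 CPM. Hsf1 in KO at 6 h stood at 9.39 CPM in replicate 4, above the others at 4.59 to 5.36 CPM. Hspa1a in KO at 24 h stood at 79.4 CPM in replicate 2, above the others at 52.7 to 56.2 CPM. Hspd1 in KO at 6 h stood at 178 CPM in replicate 4, below the others at 199 to 199.8 CPM.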

How the results depend on the processing

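Of 126 values for single genes chosen from this report, 92 kept their direction and call with library totals and 122 with RLE scaling. With DESeq2 120 did so, without the filter 120 and in 1 fit of all libraries 124. The 126 leave out some calls described above as lost, such as Hsp90aa1 and Hsph1 in WT from 3 to 6 h and Hspa1a in WT from 6 to 24 h. These numbers therefore do not cover all results of the 10 genes. With library totals these changed sign: in WT, Hsp90ab1 at 3, 6 and 24 h (−0.071, −0.21, −0.29), Hsp90aa1 at 6 and 12 h (−0.27, −0.26) and Hspd1 from 12 to 24 h (0.035); in KO, Hspa8 at 3 and 6 h (−0.0021, −0.044), Hsf1 at 3 h (−0.28), Dnajb1 at 6 h (−0.093), Hsp90aa1 at 6 and 12 h (−0.26, −0.11), Hsp90ab1 at 6 and 24 h (−0.21, −0.17) and Hsph1 from 12 to 24 h (0.044). Hspd1 in KO at 3 h was 0.030 with RLE and DESeq2 and 0.0058 without the filter, where Hsp90ab1 in WT at 24 h was −0.016. Leaving out a replicate gave these ranges across 0: Hsph1 at 12 h, −0.22 to 0.061 in KO and −0.24 to 0.011 in WT; Hsph1 and Hspd1 in KO from 12 to 24 h, −0.18 to 0.0082 and −0.037 to 0.20; Hsf1 and Hspd1 in KO at 3 h, −0.019 to 0.11 and −0.063 to 0.023; Hsp90ab1 in WT at 24 h, −0.029 to 0.098; Dnaja1 in WT from 6 to 12 h, −0.062 to 0.095; Hspa1a in KO against WT at 24 h, −0.032 to 0.20. With library totals 8 of the 10 genes were called in KO from 3 to 6 h. The median of all genes was then −0.273 on the log2 scale, and 25.2% of all called genes were higher. The count therefore does not set the 10 genes apart.

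Counts of all genes called in KO against WT moved most. At 0, 3, 6, 12 and 24 h they were 177, 359, 344, 158 and 163 without the filter and 27, 147, 183, 57 and 56 with DESeq2. The 1 fit of all libraries gave 9, 35, 125 and 32 at 0, 3, 12 and 24 h, and library totals gave 2 at 12 h. Of the 10 genes, 2 were called at 12 h without the filter, with DESeq2 and in the 1 fit. Interactions at 3, 6, 12 and 24 h gave 4, 11, 40 and 5 calls without the filter, 2, 11 and 1 with DESeq2 at 3, 6 and 12 h, and 2 in the 1 fit at 24 h. Leaving out a replicate gave 0 to 18, 18 to 160, 37 to 148, 0 to 18 and 0 to 20 calls at the 5 times, 0 to 2 of the 10 genes at 12 h, and 0 to 4, 0 to 1 and 0 to 1 interactions at 6, 12 and 24 h. The cause was not tested.

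Replicate numbers are shared between groups, but no label says that they mark an animal. Same-numbered libraries correlated above 0.1 in 47 of 80 pairs within a genotype and 1 of 20 between genotypes, and 65 of 80 and 2 of 20 correlated best with their own number. With the replicate block all 126 values kept direction and call, Hspa1b in KO from 6 to 24 h, which is outside them, gained a call (−0.34, edgeR adjusted p = 0.0324), Hspa1a in KO against WT at 12 h was 0.78 (edgeR adjusted p = 0.289), and calls over all genes were 5, 26, 0 and 0 at 0, 3, 12 and 24 h, and 0 for the interaction at 24 h. In the tests of KO against WT the block joined libraries of the same number from both genotypes, a pairing that no label gives. Counts of 14 to 94 per library limit the precision of Hsf1.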
